A study of Mus musculus with 34 samples.

Results

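Carboxylesterases are serine hydrolases that cleave esters and amides of drugs, other foreign compounds and lipids, mostly within the endoplasmic reticulum of the hepatocyte. In mice the family has grown by tandem duplication into a CES1 cluster and a cluster of CES2, CES3 and CES4 genes, both on chromosome 8. Some CES1 enzymes hydrolyse stored triacylglycerol for the assembly of very low density lipoprotein, and the CES2 enzymes act on acylglycerols and on many prodrugs. Here 9 members were followed in the liver of juvenile mice under short changes of thyroid hormone: Ces1d, Ces1e, Ces1f, Ces1g, Ces2a, Ces2c, Ces2e, Ces3a and Ces3b. A probe was taken as a member when the RefSeq accession in its annotation mapped to one of these symbols, and this gave 11 probes for 8 of the 9 genes among the 41174 probes of the array. No probe mapped to Ces3a. Ces1g, Ces2c and Ces2e had a pair of probes each, and every probe is described on its own.

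The arrays held liver RNA of 34 male and female C57BL/6 pups at postnatal day (PND) 15, with 1 pup per array. Control pups (4 males and 4 females) received saline. Hyper pups (5 males and 5 females) received 50 µg of T4 and 5 µg of T3 per 100 g body weight, and hypo+ pups (4 males and 3 females) received 20 µg and 2 µg, each injected intraperitoneally 4 h before the liver was collected. Hypo pups (4 males and 5 females) received saline, and the dams of hypo and hypo+ pups drank water with 0.05% methimazole (MMI) and 1% sodium perchlorate, which block hormone synthesis, for 3 days. The pups were thus exposed through the dam, and control and hyper pups came from dams without these agents. By the paper's account, pups given both treatments were sorted by their serum T4, and those kept as hypo+ were close to or somewhat above controls. As a group, their serum T4 was reported as significantly higher than that of controls. Each pup's RNA was labelled with Cy5 and hybridised against a commercial universal mouse reference labelled with Cy3, with no dye swap. Values are log2 ratios of Cy5 over Cy3 after loess normalisation within each array, and a difference of 1 is a 2-fold change. A probe was called at an adjusted p under 0.05 from limma, with Benjamini-Hochberg adjustment over all probes. P-values measure the spread between pups, and male and female pups of a treatment can share a dam, which the labels do not give. Because the tissue is bulk liver, fewer cells of a type and less RNA per cell cannot be told apart.

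The CES1 cluster, counted with Ces5a at its end, runs over chr8:93020214-93535879 in the RefSeq annotation of GRCm38.p6, and its last CES1 gene ends at 93379777. It includes Ces1d (chr8:93166072-93197804), Ces1e (chr8:93201218-93229631), Ces1f (chr8:93256236-93279766) and Ces1g (chr8:93302369-93337209). The second cluster runs over chr8:104734003-105150109 and includes Ces2a, Ces2b, Ces2c, Ces2e and Ces3b. RefSeq promoter windows were at hand for 6 of the 9 members, and not for Ces1d, Ces1f and Ces3a. The 250 bases before the start of 3 neighbouring CES2 genes are printed below, because Ces2c answered to injected hormone on 1 of its probes while Ces2a and Ces2e did not pass the test. All 3 genes lie on the + strand. Capitals mark AGGTCA, the core hexamer that thyroid hormone receptors and other nuclear receptors bind, and its variant AGTTCA, searched on both strands.
Ces2a (chr8:104733753-104734002): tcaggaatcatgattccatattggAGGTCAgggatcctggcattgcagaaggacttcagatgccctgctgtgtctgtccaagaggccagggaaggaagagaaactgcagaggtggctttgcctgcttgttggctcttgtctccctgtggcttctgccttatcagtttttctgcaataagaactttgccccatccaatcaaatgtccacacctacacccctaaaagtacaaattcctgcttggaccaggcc
Ces2c (chr8:104846818-104847067): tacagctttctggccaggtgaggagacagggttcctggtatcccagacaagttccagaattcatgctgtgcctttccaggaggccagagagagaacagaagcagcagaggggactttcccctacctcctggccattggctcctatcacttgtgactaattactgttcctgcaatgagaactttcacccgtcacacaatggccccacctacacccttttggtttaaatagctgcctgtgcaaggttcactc
Ces2e (chr8:104926010-104926259): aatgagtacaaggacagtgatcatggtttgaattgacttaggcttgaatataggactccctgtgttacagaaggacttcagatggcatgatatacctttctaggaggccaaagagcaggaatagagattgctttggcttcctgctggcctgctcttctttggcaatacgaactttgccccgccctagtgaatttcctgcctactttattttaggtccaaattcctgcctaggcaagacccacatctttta
AGGTCA occurred once, in Ces2a, 226 bases before the start, and neither hexamer occurred in the other 2 sequences. Over 32851 promoters with windows of 300 bases, 16.3% held AGGTCA and 14% held AGTTCA on either strand. A direct repeat of AGGTCA with a 4-base spacer was in 0.0152% of these windows and in none of the 6 member windows. The paper searched a far wider region around each start and allowed variant hexamers. For a gene that it names Ces2, it lists a candidate repeat of variant hexamers with this spacer, upstream of the windows used here. TATAAA, found on either strand in 13.6% of windows, lay 30 bases before the start of Ces3b on the strand of the gene. In Ces1g it lay 26 bases before the start on the opposite strand, so that the gene's own strand reads TTTATA. These matches describe the letters of the windows, and receptor binding was not measured in these data.

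Some facts of the whole series bear on the values below. Dio1, the deiodinase gene that thyroid hormone induces in liver, fell by 1.46 (log2) in hypo males and by 1.77 in hypo females against controls (adjusted p = 0.0124 and 0.00922). Thrsp and Me1, further genes known to respond to thyroid hormone, fell in hypo pups and were not called in either sex alone (adjusted p of 0.0766 to 0.469). Averaged over sexes in a fit of all pups, both were called (-1.51 and -0.44, adjusted p = 0.00170 and 0.00275). In hyper pups averaged over sexes Me1 was called (0.37, adjusted p = 0.0168), and Thrsp (1.01, 0.0631) and Dio1 (0.33, 0.777) were not. All 8 hepatocyte marker genes were well above background on all 34 arrays. On slides 2 and 8, which were scanned on the same day and held 8 pups of both sexes and all treatments, the mean log2 ratio of these markers was 5.28 to 5.62, against 4.03 to 4.89 on the other 26 arrays. In 4 pups (control males 832 and 522, control female 831 and hypo+ female 543) the mean log2 ratio over 11 pancreatic acinar genes was 2.30 to 4.84, against 0.46 to 0.91 in the other 30, and 3 of these 4 pups were controls. Results that differ without the 8 pups or without these 4 pups are given both ways.

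Ces1f, which encodes a triacylglycerol hydrolase related to Ces1d, was higher in pups whose dams had received MMI and perchlorate. In control males its log2 ratio was 1.74, 1.87, 2.00 and 2.01, and in hypo males 2.34, 2.86, 3.48 and 3.72. In control females it was 1.30, 1.42, 1.69 and 1.70, and in hypo females 2.76, 3.19, 3.38, 3.50 and 3.58. Each of the 9 hypo pups exceeded the highest control of its sex, an upward separation found in 1.49% of all probes in males and 0.846% in females. Ces1f rose 3.38-fold in hypo females (log2 difference 1.76, SE 0.19, 95% interval 1.35 to 2.16, adjusted p = 0.000482). It was the 1 of 11 member probes called there, where 0.155% of all probes were called. In males the difference was 1.19 (SE 0.26, 95% interval 0.63 to 1.75, 2.28-fold) with an adjusted p of 0.153. None of the 11 probes was called in males by limma, where 0.0971% of all probes were, and 2 had an unadjusted p under 0.05.

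Averaged over the sexes in a fit of all 34 pups, Ces1f rose 2.78-fold in hypo pups (log2 difference 1.47, SE 0.17, adjusted p = 4.15e-06), and it was the 1 member probe called against 1.09% of all probes. The difference between females and males in this response was 0.57 (SE 0.34, 95% interval -0.13 to 1.26) and did not pass the test. Within slides that held both groups, the hypo difference was positive on 3 of 3 slides in males (1.11 to 1.84) and on 4 of 4 in females (1.06 to 2.08). The female difference was called with each of the 17 females left out in turn. In males, of the 17 such fits, it was called without hypo male 723, whose 2.34 was the lowest hypo value (1.44, adjusted p = 0.0333). By the scanner's own ratio, from signals its software background-subtracts and dye-normalises, the hypo difference was 0.70 in males, 0.64 in females and 0.67 averaged, and was not called (adjusted p = 0.931, 1 and 0.379).

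In hypo+ pups, injected 4 h before collection, Ces1f was above controls. In hypo+ males the log2 ratio was 2.45, 2.65, 2.85 and 3.15, and in hypo+ females 2.51, 3.14 and 3.40. These values overlapped those of hypo pups and exceeded the highest control of the same sex, as did 2.02% of all probes in males and 2.42% in females. Against controls, Ces1f rose 2.81-fold in hypo+ females (1.49, SE 0.22, adjusted p = 0.0230), as the 1 member called where 0.0219% of all probes were. In hypo+ males the difference was 0.87 (SE 0.26, 1.83-fold, adjusted p = 0.417), none of the 11 member probes was called where 0.0267% of all were, and 2 had an unadjusted p under 0.05. Averaged over sexes, Ces1f rose 2.26-fold (1.18, SE 0.18, adjusted p = 0.000641), and by the scanner's ratio this was 0.58 and not called (adjusted p = 0.459). The difference between hypo+ and hypo pups was -0.29 (SE 0.18, 95% interval -0.66 to 0.07, adjusted p = 0.508), so its interval holds both no change and a fall of 0.66. Within the 4 slides that held both groups it was negative on each (-0.83 and -1.26 in males, -0.36 and -0.25 in females). With slide as a fixed block it was -0.54 (SE 0.20, 95% interval -0.96 to -0.12, adjusted p = 0.191).

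The Ces1f call in hypo+ females was not stable. It was lost without control female 523 (1.45, adjusted p = 0.110), control female 882 (1.41, 0.110), hypo+ female 763 (1.43, 0.187) or hypo+ female 601 (1.30, 0.205). It was kept without the pups on slides 2 and 8 (1.80, adjusted p = 0.0103) and without the pups with acinar transcripts (1.80, adjusted p = 0.0179). It was lost, too, with normexp (1.56, adjusted p = 0.0549), median centring (1.1, 0.179), the scanner's ratio (0.62, 1), slide as a fixed block (1.29, 0.413), scan day as a fixed block (1.49, 0.0607) and Cy5 alone (1.34, 0.335).

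Hyper pups showed no such shift in Ces1f. Their log2 ratio was 1.38, 1.59, 1.65, 2.07 and 2.47 in males and 1.24, 1.45, 1.80, 1.84 and 1.86 in females, ranges that overlap those of controls. The differences from controls were -0.08 in males and 0.11 in females. Ordered by group mean, Ces1f was highest in hypo females (3.28 ± 0.33, SD, n = 5), followed by hypo males (3.10 ± 0.62, n = 4), hypo+ females (3.02 ± 0.46, n = 3) and hypo+ males (2.78 ± 0.30, n = 4). Control males (1.91 ± 0.13, n = 4), hyper males (1.83 ± 0.44, n = 5), hyper females (1.64 ± 0.28, n = 5) and control females (1.53 ± 0.20, n = 4) formed the low end. Neighbours within either set of 4 groups overlapped, and hypo+ males (from 2.45) did not overlap control males (up to 2.01), the neighbours between the sets. The sets themselves overlapped in males. Hyper male 498, at 2.47, lay above the lowest hypo+ male (2.45) and the lowest hypo male (2.34).

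**Figure D1:**
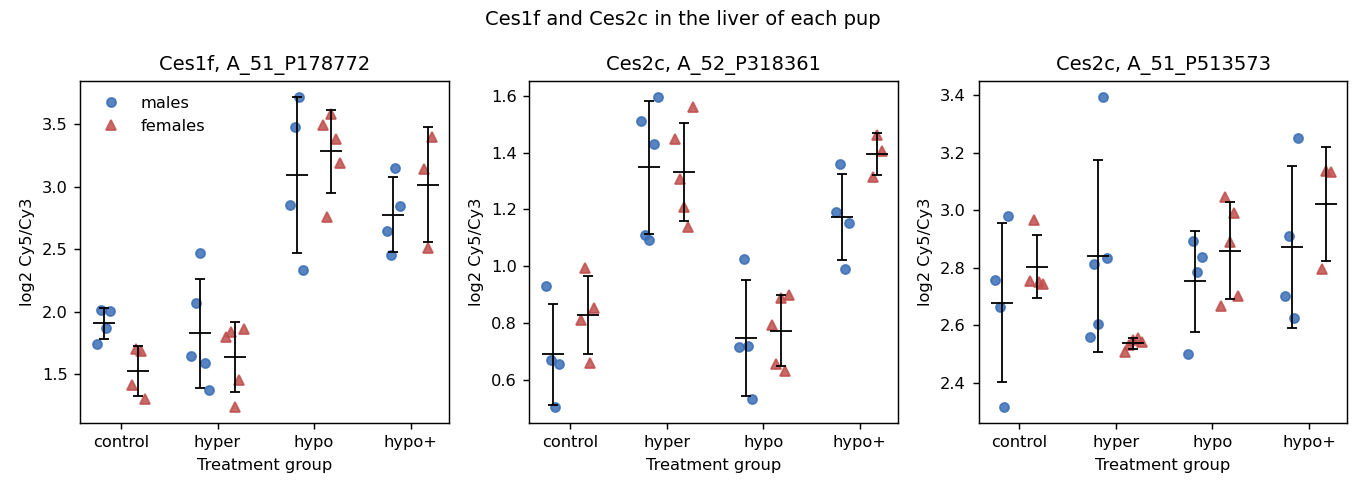
Log2 Cy5/Cy3 of the Ces1f probe and of both Ces2c probes in each of the 34 pups (circles, males; triangles, females), by treatment, with the mean ± SD of each group. Ces1f is higher in hypo and hypo+ pups, the Ces2c probe A_52_P318361 is higher in hyper and hypo+ pups, and the other Ces2c probe shows neither pattern.

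Over the 34 arrays the named probes outside the family whose log2 ratios followed Ces1f most closely were those of Aox1 (Pearson r = 0.94), Pir (0.92) and Srxn1 (0.92), out of 26572 probes compared. The arrays share the treatment groups and the reference, so these correlations describe likeness only.

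For Ces1e and Ces1g the channels of the array gave different pictures of the hypo liver. Ces1e encodes egasyn, which holds beta-glucuronidase in the endoplasmic reticulum, and Ces1g encodes a hydrolase that restrains hepatic triacylglycerol and lipoprotein secretion. By log2 ratio neither was called in the main test, where the hypo difference averaged over sexes was 0.30 for Ces1e (SE 0.11, adjusted p = 0.335) and 0.21 for each Ces1g probe. Ces1e was called with slide (0.28, adjusted p = 0.0190) or scan day (0.28, 0.0153) as a fixed block, where the Ces1g probes were at 0.23 to 0.24 (adjusted p of 0.0530 to 0.0870). The Cy5 signal of the pups was also normalised alone (quantile, log2), a comparison chosen after seeing the data. That signal was higher in hypo pups for both genes. The Cy3 signal of the shared reference was also higher there without being called, as given below. The Cy5 signal of Ces1e rose 2.03-fold (log2 difference 1.02, SE 0.14, 95% interval 0.73 to 1.31, adjusted p = 9.81e-05). That of Ces1g rose 2.05-fold on probe A_51_P253481 (1.04, SE 0.20, adjusted p = 0.00422) and 2.06-fold on probe A_52_P245962 (1.04, SE 0.19, adjusted p = 0.0024). With Ces1f (1.42, adjusted p = 9.09e-05), this made 4 of 11 member probes called by Cy5 alone, where 1.05% of all probes were called.

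The log2 Cy5 signal of Ces1e was 11.20, 11.37, 11.54 and 11.60 in control males and 12.04, 12.32, 12.44 and 12.95 in hypo males. In control females it was 10.87, 10.99, 11.05 and 11.59, and in hypo females 11.52, 11.96, 12.21, 12.23 and 12.85. The male groups did not overlap, whereas hypo female 721 (11.52) lay just below control female 394 (11.59). The Cy3 signal of the same spots, which came from the same reference RNA on every array, moved with it. Its mean was 6.83 ± 0.37 in control males and 7.53 ± 0.53 in hypo males (SD, n = 4 each), and 6.42 ± 0.24 in control females and 7.28 ± 0.55 in hypo females (n = 4 and 5). The Cy3 difference averaged over sexes was 0.78 (SE 0.17, adjusted p = 0.513), beside a Cy5 difference of 1.02.

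Ces1g showed the same on both probes. For A_52_P245962 the log2 Cy5 signal was 12.25 to 12.51 in the 4 control males and 13.00 to 13.96 in the 4 hypo males. It was 12.29 to 12.73 in the 4 control females and 12.07, 13.58, 13.68, 13.96 and 13.98 in hypo females. Apart from hypo female 721 at 12.07, every hypo pup exceeded the highest control of its sex. The Cy3 difference averaged over sexes was 0.80 (SE 0.21) for this probe and 0.82 (SE 0.21) for the other. Over the 34 arrays Cy5 and Cy3 correlated at r = 0.93 and 0.90 for the Ces1g probes, 0.89 for Ces1e and 0.89 for Ces1f, but at 0.17 and 0.28 for the Ces2e probes. The median over all 41174 probes was 0.60. What couples the channels was not tested. For Ces1f the Cy3 difference was 0.25 (SE 0.07), small beside its Cy5 difference. Its Cy3 signal was well above background on 14 of 34 arrays, which limits how large a Cy3 difference could appear. That of Ces2e A_51_P179919 (r = 0.28) was so on 2 of 34.

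**Figure D2:**
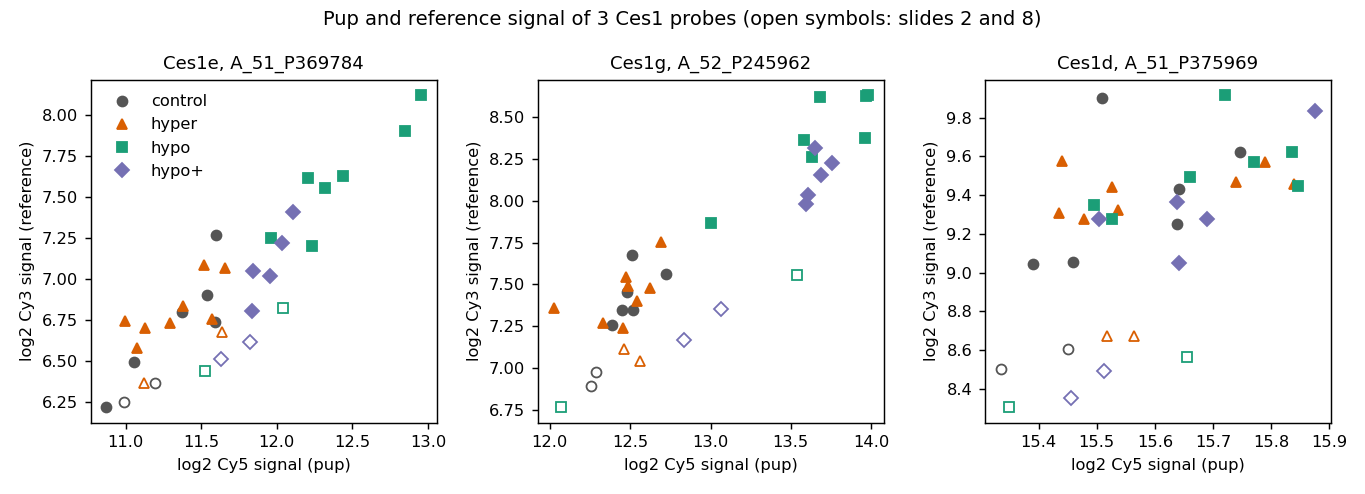
Log2 Cy3 signal of the reference against log2 Cy5 signal of the pup for the probes of Ces1e, Ces1g and Ces1d, each normalised alone, with 1 symbol per pup and open symbols for slides 2 and 8. Cy3 climbs with Cy5 for Ces1e and Ces1g, where most hypo pups sit at the upper right, and on slides 2 and 8 Cy3 lies below that of other arrays of like Cy5.

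In single sexes the Cy5 rise of Ces1e was called in males (1.01, SE 0.17, 2.01-fold, adjusted p = 0.045), the 1 member called where 0.0534% of all probes were, and not in females (1.03, SE 0.21, adjusted p = 0.0889). In females Ces1f was the 1 member called by Cy5 alone (1.67, adjusted p = 0.00917), where 0.0583% of all probes were. Ces1g was at 1.07 and 1.11 in males (adjusted p = 0.236 and 0.0867) and at 1.00 and 0.98 in females (adjusted p = 0.405 and 0.481). Within slides the Cy5 difference of Ces1e was positive on 3 of 3 slides in males (0.72 to 1.41) and 4 of 4 in females (0.53 to 1.36). That of Ces1g A_52_P245962 was positive on 3 of 3 and 3 of 4 slides, and the lowest female value, -0.22, was on the slide of hypo female 721. Without slides 2 and 8 the averaged rise was 1.1 for Ces1e (adjusted p = 0.000694) and 1.16 for both Ces1g probes. Without the pups with acinar transcripts it was 0.97 for Ces1e (adjusted p = 0.00591), 0.98 for A_52_P245962 (adjusted p = 0.0498) and 0.99 for A_51_P253481 (adjusted p = 0.0627).

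In hypo+ pups the Cy5 signal of Ces1g also stood above controls, by 1.02 and 1.00 on its probes averaged over sexes (adjusted p = 0.0254 and 0.0214). With Ces1f (1.09, adjusted p = 0.0113) these were 3 of 11 member probes called, where 0.294% of all probes were called. Ces1e differed by 0.60 (SE 0.15, adjusted p = 0.0799). Without the 4 pups with acinar transcripts none of these hypo+ differences was called, and they were 1.09 and 1.04 for Ces1g (adjusted p = 0.165 and 0.167) and 1.23 for Ces1f (adjusted p = 0.0606). Between hypo+ and hypo pups the Cy5 difference was -0.02 and -0.04 for the Ces1g probes and -0.42 for Ces1e (SE 0.15, adjusted p = 0.179). In hyper pups the Cy5 signal differed from controls by 0.06 for Ces1e and by 0.01 for each Ces1g probe. The 1 member called by Cy5 alone in hyper pups against controls (0.602% of all probes called) and in hypo+ against hypo pups (1.97% called) was Ces2c A_52_P318361, described below.

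On the ratio scale of the main test, Ces1e and Ces1g values of hypo and hypo+ pups leaned upward without being called in that test. In hypo+ females, where 2.42% of all probes had every pup above the highest control, this held for 4 of 11 member probes, those of Ces1e, Ces1f, Ces1g (A_52_P245962) and Ces2c (A_52_P318361). Averaged over sexes, the hypo+ difference was 0.35 for Ces1e (SE 0.12, adjusted p = 0.201), 0.41 for Ces1g A_52_P245962 (SE 0.13, adjusted p = 0.134) and 0.28 for A_51_P253481 (adjusted p = 0.353). With scan day as a fixed block Ces1e (0.32, adjusted p = 0.0177) and Ces1g A_52_P245962 (0.35, 0.0195) were called, and with slide as a fixed block they were not (0.26 and 0.33, adjusted p = 0.154 and 0.0916). The Ces1g probes followed each other at r = 0.94 over the 34 arrays.

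Ces1d, the main triacylglycerol hydrolase that mobilises stored fat for lipoprotein assembly, gave a strong signal, with Cy5 values of 36057 to 70986. Its log2 ratio was 5.70 ± 0.60 in control males (SD, n = 4) and 6.06 ± 0.32 in control females (n = 4). Neither hypo pups (0.30 in males, -0.18 in females) nor the other groups differed from controls by the test. By Cy5 alone the averaged hypo difference was 0.14 (SE 0.07, 95% interval -0.01 to 0.29), so the interval holds no value as large as the Cy5 rise of Ces1e or Ces1g. The ratio of Ces1d separated slides instead of treatments. It was 6.45 to 6.83 on slides 2 and 8 and 4.99 to 6.08 on the other 26 arrays, and its Cy3 signal was lower there (8.30 to 8.67 against 9.04 to 9.92), while the Cy5 signals overlapped. Its correlation with the mean of the hepatocyte markers was 0.95 over 34 arrays and 0.83 without slides 2 and 8.

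On the ratio scale Ces1e and some probes of the second cluster also tended to be higher on these slides. On slides 2 and 8 Ces1e was at 4.41 to 4.93 against 3.79 to 4.62 elsewhere, Ces2a at 3.95 to 4.55 against 3.52 to 4.18, and the Ces2e probe A_52_P365615 at 6.29 to 6.65 against 5.36 to 6.23. Ces1f (1.70 to 3.48 against 1.24 to 3.72) and Ces2c A_52_P318361 (0.65 to 1.46 against 0.50 to 1.60) did not separate these slides. Their correlations with the hepatocyte markers were 0.19 and -0.04.

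Ces2c, an acylglycerol and drug hydrolase of the second cluster, rose in pups given thyroid hormone, but on 1 of its 2 probes. The probe that rose, A_52_P318361, was the dimmer, with a median Cy5 signal of 208 against 758 for A_51_P513573. The paper lists a gene that it names Ces2 among those that appeared to be directly regulated by thyroid hormone. By its own test, that gene was higher in hyper pups of both sexes and in hypo+ females. On probe A_52_P318361 the log2 ratio was 0.50, 0.66, 0.67 and 0.93 in control males and 1.09, 1.11, 1.43, 1.51 and 1.60 in hyper males. In control females it was 0.66, 0.81, 0.85 and 0.99, and in hyper females 1.14, 1.21, 1.31, 1.45 and 1.56. Each of the 10 hyper pups exceeded the highest control of its sex, as for 0.899% of all probes in males and 1.3% in females. Averaged over sexes this probe rose 1.5-fold (0.58, SE 0.08, adjusted p = 4.27e-05), as the 1 of 11 member probes called where 0.848% of all probes were. In females alone it rose 1.42-fold (0.50, SE 0.09, adjusted p = 0.0343), again the 1 member called, where 0.158% of all probes were. In males it was 0.66 higher (SE 0.12, 95% interval 0.40 to 0.92, 1.58-fold) with an adjusted p of 0.0656, none of the members was called by limma where 0.0753% of all probes were, and 1 had an unadjusted p under 0.05.

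Within slides this hyper difference was positive on 4 of 4 slides in males (0.44 to 0.94) and 4 of 4 in females (0.32 to 0.71). The call over both sexes was kept without the pups with acinar transcripts (0.56, adjusted p = 0.0021), without slides 2 and 8 (0.64, adjusted p = 0.0005) and by Cy5 alone (0.49, adjusted p = 0.00423). Calls in 1 sex turned on single pups and on the processing. The female call was lost without control 523, 394 or 882, hyper 621, 585 or 783, or hypo 743, with differences of 0.45 to 0.51 and adjusted p of 0.0580 to 0.130, and without the pups on slides 2 and 8 (0.57, adjusted p = 0.0975). It was also lost with normexp (0.52, adjusted p = 0.0652), median centring (0.40, 0.446), the scanner's ratio (0.66, 0.0565) and Cy5 alone (0.44, 0.166). The male difference was called without hypo male 576 (0.66, adjusted p = 0.0432) or hyper male 498 (0.72, adjusted p = 0.0424).

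The same probe did not differ by the test in hypo pups and was higher after hormone replacement. In hypo males its log2 ratio was 0.53, 0.72, 0.72 and 1.03, and in hypo females 0.63, 0.65, 0.79, 0.89 and 0.90, which overlap the controls (averaged difference 0.00, 95% interval -0.16 to 0.17). In hypo+ males it was 0.99, 1.15, 1.19 and 1.36, and in hypo+ females 1.31, 1.41 and 1.46. The hypo+ values exceeded the highest control of their sex and, in females, the highest hypo pup, which held for 2.36% of all probes. This probe rose 1.54-fold in hypo+ against hypo females (0.62, SE 0.10, adjusted p = 0.00390), the 1 member called where 0.556% of all probes were. The rise was not called without slides 2 and 8 (0.56, adjusted p = 0.0567), with normexp (0.52, 0.0572), median centring (0.49, 0.137) or Cy5 alone (0.47, 0.0928). In males the difference was 0.42 (SE 0.13, adjusted p = 0.246), with no member called by limma where 0.369% of all probes were and 2 at an unadjusted p under 0.05.

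Averaged over sexes, Ces2c A_52_P318361 rose 1.44-fold in hypo+ against hypo pups (0.52, SE 0.08, adjusted p = 0.000204), the 1 member called where 3.07% of all probes were. Against controls it rose by the same 0.52 (SE 0.09, adjusted p = 0.00150), and with Ces1f this made 2 members called where 0.743% of all probes were. Without the 4 pups with acinar transcripts, 3 of which were controls, the rise over controls was 0.48 and no longer called (adjusted p = 0.0660). It was also not called with median centring or by Cy5 alone, and was called in 9 of 12 alternatives other than leaving out 1 pup (adjusted p up to 0.0839). The hypo+ comparisons share their control and hypo pups with those above. Among named probes outside the carboxylesterase family, those that followed Ces2c A_52_P318361 most closely over the 34 arrays were Gramd1c (r = 0.85), Frmd8 (0.82) and Slc25a45 (0.81).

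The other Ces2c probe, A_51_P513573, did not rise. Its log2 ratio was 2.68 ± 0.28 in control males and 2.84 ± 0.33 in hyper males (SD, n = 4 and 5), and 2.80 ± 0.11 in control females and 2.54 ± 0.02 in hyper females (n = 4 and 5). In females all hyper pups (2.51 to 2.55) lay below all controls (2.74 to 2.97), where 1.25% of all probes had such groups, and the difference of -0.27 (SE 0.09, 95% interval -0.45 to -0.09) was not called (adjusted p = 0.482). The responses of the probes to hyper treatment differed by 0.63 averaged over sexes (0.50 in males, 0.77 in females). In an exact two-sided permutation test over pups within sex this gave p = 0.000441, and 0.00529 after Benjamini-Hochberg adjustment over 12 such tests in Ces1g, Ces2c and Ces2e. This test treats possible littermates as independent. In each sex apart the exact p was 0.0556 in males and 0.00794 in females (0.267 and 0.190 after adjustment over 24 tests). For hypo+ pups the probes differed by 0.32 against controls and by 0.38 against hypo pups (adjusted p = 0.0380 for each), and for hypo pups by -0.06 (adjusted p = 0.743). In each sex apart the unadjusted exact p of the hypo+ differences was 0.171 in males for both, and 0.0286 against controls and 0.0536 against hypo pups in females. Both probes carry Ces2c accessions, and which transcripts each one binds was not tested.

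A probe of the neighbouring gene Ces2b moved like the first Ces2c probe. Ces2b, another CES2 hydrolase, lies at chr8:104828494-104840093, next to Ces2c (chr8:104847068-104854483), and its probe A_52_P627269 correlated with Ces2c A_52_P318361 at r = 0.91 over 34 arrays. The pair of Ces2c probes correlated at 0.12. On this Ces2b probe the log2 ratio rose by 0.40 in hyper pups averaged over sexes (SE 0.07, adjusted p = 0.00302), by 0.37 in hypo+ against hypo pups (adjusted p = 0.00513) and by 0.33 in hypo+ pups against controls (adjusted p = 0.0499). With single pups left out, the last of these had adjusted p of 0.0264 to 0.165 and was called in 8 of 34 cases, and with the inferred litter as a random block its adjusted p was 0.0645. The other Ces2b probe, A_51_P436567, differed by 0.03 between hyper pups and controls. By Cy5 alone the Ces2b rise in hyper pups was 0.31 and not called (adjusted p = 0.197). Of 12 alternatives other than leaving out 1 pup, 8 kept the limma call in hyper pups (adjusted p up to 0.466). In hypo+ against hypo pups 7 did (adjusted p up to 0.502), and in hypo+ pups against controls 4 did (adjusted p up to 0.936). Whether these Ces2b and Ces2c probes share targets was not tested.

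**Figure D3:**
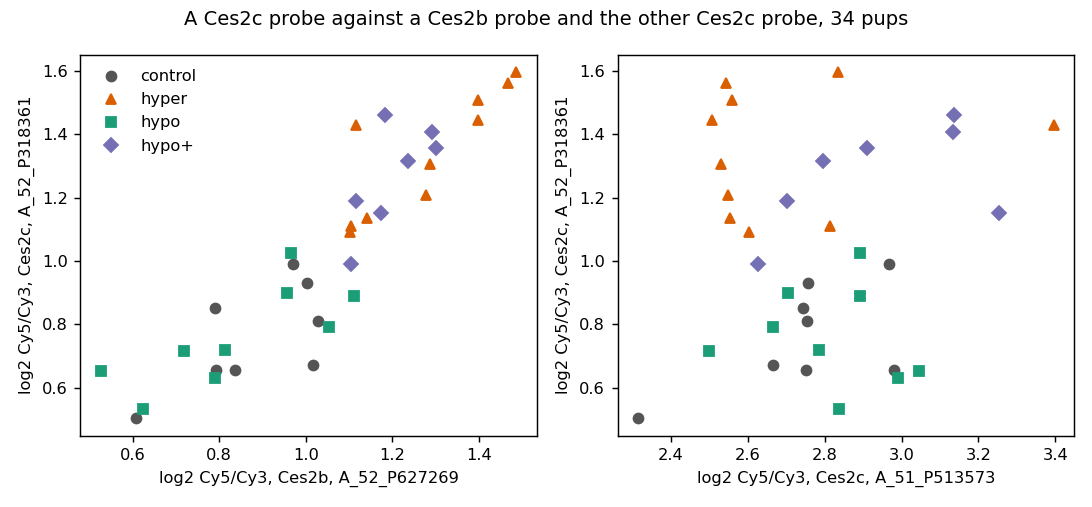
Log2 Cy5/Cy3 of the Ces2c probe A_52_P318361 in each of the 34 pups against the Ces2b probe A_52_P627269 (left, r = 0.91) and against the other Ces2c probe A_51_P513573 (right, r = 0.12), with symbols by treatment. The Ces2c probe follows the Ces2b probe more closely than the second probe of its own gene.

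Ces2e, a further CES2 hydrolase, leaned upward in hypo pups on its dim probe. On A_51_P179919 the log2 ratio was 1.11 ± 0.09 in control males and 1.42 ± 0.12 in hypo males (SD, n = 4 each), and 0.99 ± 0.11 in control females and 1.37 ± 0.20 in hypo females (n = 4 and 5). The hypo pups did not overlap the controls in either sex, as was true in the upward direction for 1.49% of all probes in males and 0.846% in females. The averaged difference of 0.35 (SE 0.10) was not called (adjusted p = 0.0867), and by Cy5 alone it was 0.21 (adjusted p = 0.459). It was called with slide as a fixed block (0.39, adjusted p = 0.0210), slide as a random block (0.36, 0.0250) and scan day as a fixed block (0.41, 0.0179), and not with litter, inferred from the animal numbers, as a random block (0.35, 0.118). Within slides it was positive on 3 of 3 slides in males (0.20 to 0.56) and 4 of 4 in females (0.11 to 0.70). Its Cy3 signal was well above background on 2 of 34 arrays. The bright probe A_52_P365615 differed by 0.12 (SE 0.17).

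Ces2a, which hydrolyses acylglycerols, and Ces3b, a CES3 hydrolase, were not called in any comparison. Averaged over sexes, Ces2a differed from controls by 0.01 (hypo), -0.14 (hyper) and 0.07 (hypo+). Ces3b differed by -0.25, -0.19 and -0.11, and by Cy5 alone by -0.53 (SE 0.24, adjusted p = 0.599), -0.50 (SE 0.23, adjusted p = 0.840) and -0.64 (SE 0.25, adjusted p = 0.438). No member was called between females and males (differences of -0.09 to 0.16) by limma, none at an unadjusted p under 0.05, where 0.0996% of all probes were. None had a called interaction of sex with treatment, where 0% of all probes did, and 1 probe had an unadjusted p under 0.05, Ces2c A_51_P513573 in hyper pups.

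**Figure D4:**
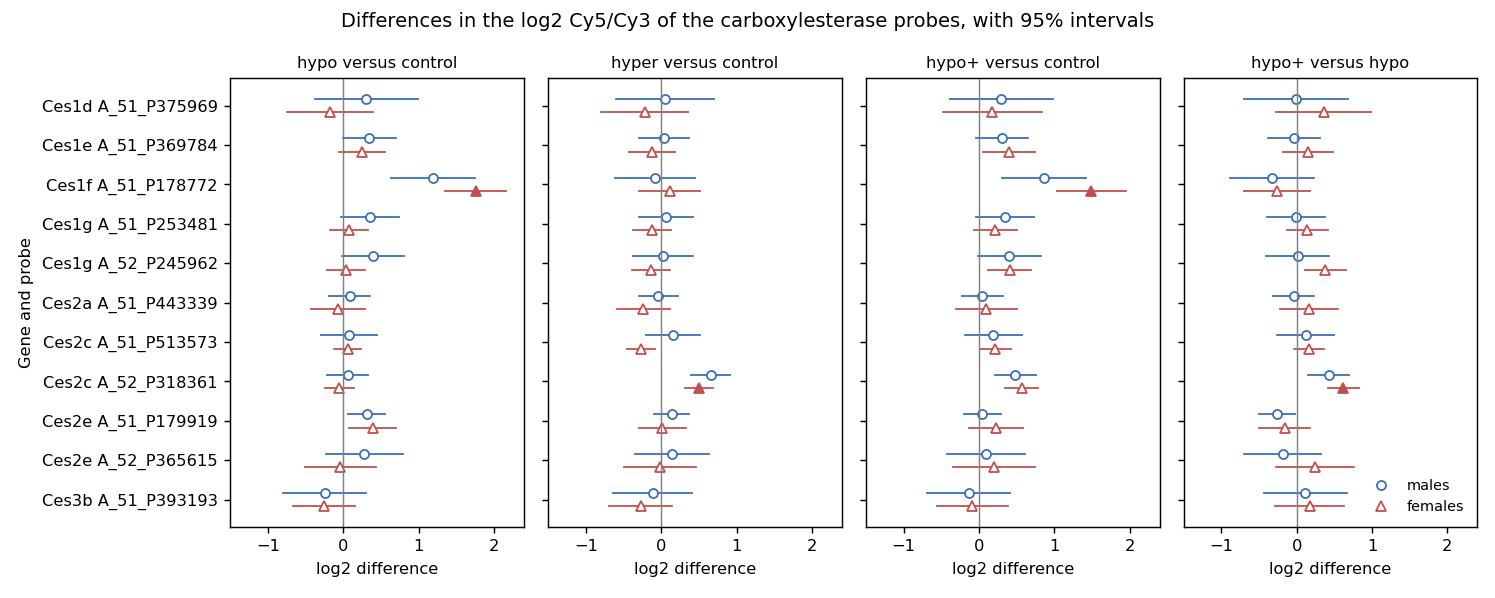
Log2 differences with 95% intervals for the 11 member probes in 4 comparisons, males and females apart, on the ratio scale, with filled symbols for adjusted p under 0.05. Filled symbols appear for Ces1f in hypo and hypo+ females against controls and for Ces2c A_52_P318361 in hyper females against controls and in hypo+ against hypo females.

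Taking the members as a group on the ratio scale, the median difference in hypo pups was 0.30 in males (10 of 11 probes positive) and 0.03 in females (6 of 11), and in hyper pups 0.05 (8 of 11) and -0.12 (3 of 11). In hypo+ pups it was 0.30 and 0.22, with 10 of 11 positive in each sex. The medians over all probes lay within 0.01 of 0. The median over the 8 hepatocyte markers in the same comparisons was 0.33 and -0.09 in hypo, 0.08 and -0.14 in hyper and 0.36 and 0.16 in hypo+ males and females, and the part of these markers in the members' medians was not tested. With other scalings the median of hypo females moved between -0.13 (the scanner's own ratio, 2 of 11 positive) and 0.34 (normexp background correction). With normexp the hyper medians turned, to -0.17 in males (1 of 11 positive) and 0.09 in females (7 of 11).

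**Figure D5:**
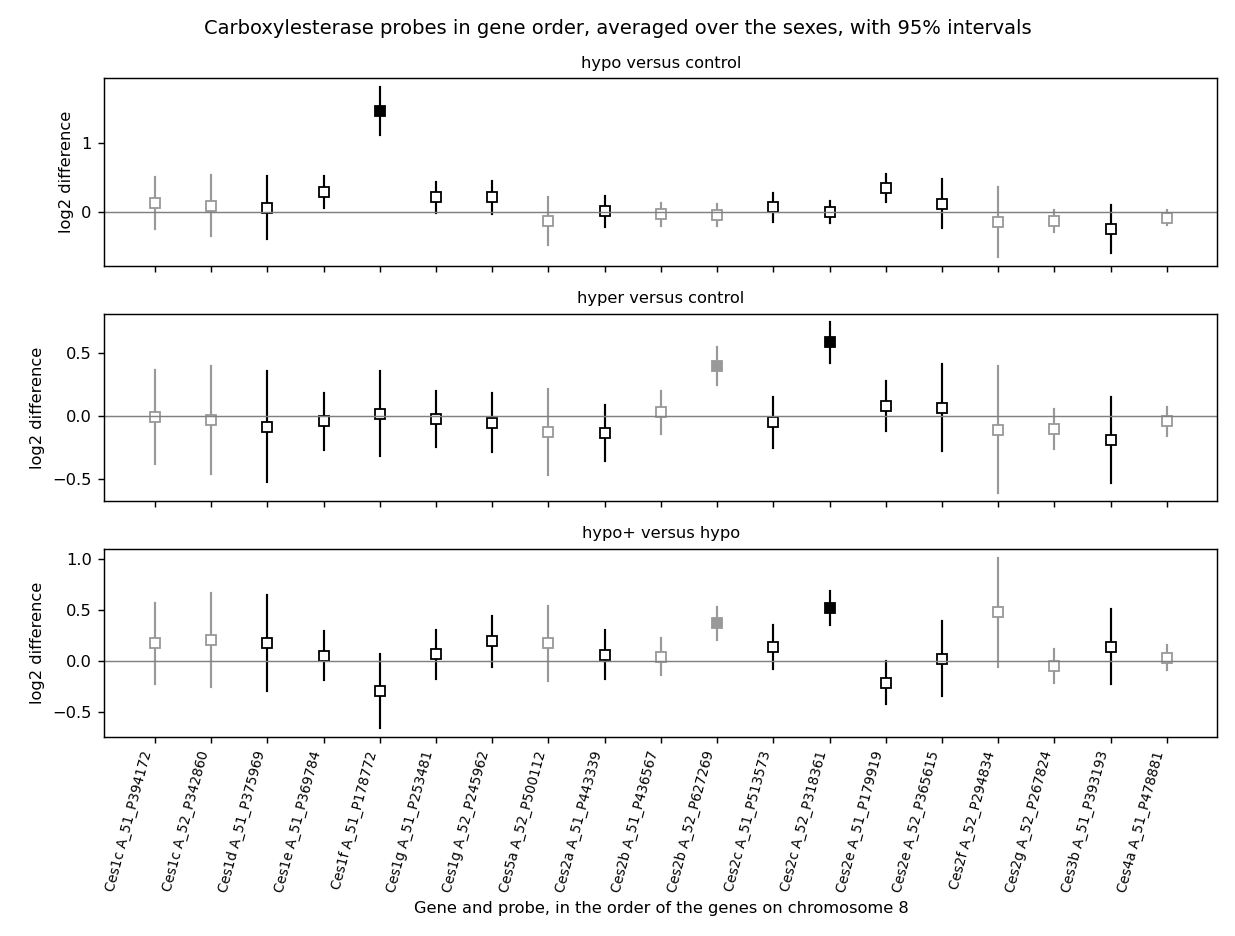
Log2 differences averaged over sexes, with 95% intervals, for the 11 member probes (black) and 8 probes of other carboxylesterase genes (grey) in gene order on chromosome 8, for hypo and hyper pups against controls and hypo+ against hypo pups, with filled symbols for adjusted p under 0.05. Ces1f is filled for hypo pups, and Ces2c A_52_P318361 and Ces2b A_52_P627269 are filled for hyper pups and for hypo+ against hypo pups.

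Other genes of the same pathways give the setting, from lists of genes by known role that were chosen with earlier results of these data known. The called genes of these lists are therefore a description and no independent test. The shares of all probes called in the averaged comparisons were 1.09% for hypo, 0.848% for hyper, 0.743% for hypo+ and 3.07% for hypo+ against hypo. Among 26 lipid and ester hydrolase genes, Abhd6 and Ddhd1 fell in hypo pups averaged over sexes, and none rose. Abhd6 fell by 0.50 (adjusted p = 0.000301), and Ddhd1 by 0.32 on its probe A_52_P332105 (adjusted p = 0.0487). Abhd6 hydrolyses monoacylglycerols and Ddhd1 is a phospholipase. In hyper pups Abhd6 (0.39), Ddhd1 (0.57 on A_52_P332105 and 0.41 on A_52_P247491) and Pnpla3 (0.86), a lipid droplet hydrolase, rose. In hypo+ against hypo pups these 3 (Ddhd1 on A_52_P332105) and Mgll (0.56), another monoacylglycerol hydrolase, rose.

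Among 25 genes of foreign compound metabolism, 3 rose in hypo pups averaged over sexes and none fell, where 1.09% of all probes were called. These were Ephx1, the microsomal epoxide hydrolase (1.26, adjusted p = 0.00104), the efflux transporter Abcc3 (0.60, adjusted p = 0.0247) and Cyp2c55 (0.52, adjusted p = 0.00375). Ephx1 (1.13) and Abcc3 (0.69) also rose in hypo+ pups against controls. Against hypo pups, hypo+ pups had higher Por, the reductase that supplies cytochromes P450 (0.36, adjusted p = 0.0486), and lower Cyp2c55 (-0.45, adjusted p = 0.0113). Among 19 genes of triacylglycerol and lipoprotein handling, Gpam, which starts glycerolipid synthesis (0.21, adjusted p = 0.0210), and the droplet coat gene Plin2 (0.35, adjusted p = 0.0373) rose in hyper pups. None of the 19 was called in hypo pups averaged over sexes.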

How the data were processed

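Liver RNA of 34 pups was measured on two-colour Agilent arrays, and each pup was assigned to its group by the labels. The authors extracted median signal intensity per spot and channel with the scanner software and deposited these with a log10 ratio of red over green. They also deposited a table of normalised log2 values, which matched the loess ratios in scale and direction when compared array by array and whose centring is not stated. It was used as an alternative. Here control spots and spots marked as outliers were left out, Cy5 over Cy3, with no background subtracted, was normalised by loess within arrays in limma 3.58.1 (R 4.3.3), and the spots of each probe were averaged. Probes were named by matching their accession to a RefSeq gene table, which named 23374 of 41174 probes.

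Groups were compared with limma in each sex, and over both sexes in a fit of all 8 groups, at an adjusted p under 0.05 over all probes. The fits were tested on simulated data. Members and lists were chosen with earlier results of these data known. The text gives every member, and the genes of the other lists that were called. The files hold median signals, so normexp (offset 50) was run on median signals and background medians. Alternatives were other normalisations, filters, slide blocks, sexes in one fit, a litter inferred from animal numbers and leaving out each pup. Chosen after seeing the data were the scan day as a block, either channel alone (quantile), leaving out 4 pups with pancreatic transcripts or the 8 pups of slides 2 and 8, and the permutation test of probe pairs, over both sexes and in each. Sources differ on whether the dams' treatment began at PND 12 or 13. Array number limits precision.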

Additional observations from a re-analysis of the deposited data

Results flagged for a closer look

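In 6 of the 77 combinations of a member probe and a group that were examined, 1 pup lay far from the others of its group by Dixon's criterion, which chance meets in about 1 in 20 groups. The log2 ratios of these pups were 6.54 for Ces1d in control female 831, 6.59 for Ces1d in hyper female 585, 4.41 for Ces1e in control male 832, 4.93 for Ces1e in hypo male 576, 2.97 for Ces2c A_51_P513573 in control female 831 and 6.29 for Ces2e A_52_P365615 in hypo+ male 546. Each was the highest of its group, and all 6 were on slides 2 and 8.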

How the results depend on the processing

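Under alternatives other than leaving out 1 pup, 172 of 204 counts of called member probes stayed within 1.5 times the value reported. With 1 pup left out, 427 of 442 did. Part of this agreement comes from counts that were 0 in the main test and in every alternative, and so says little about stability. Such counts were those of the interactions, of females against males, and of hypo+ males against controls and against hypo males. No called difference of Ces1f, Ces2c A_52_P318361 or Ces2b A_52_P627269 changed sign, whereas some medians over the members did. In hypo males 1 probe was called with both sexes in one fit and by Cy5 alone, and in hyper males 1 with the filter on negative controls, slide as a random block or both sexes in one fit. In females the hypo count was 0 with the scanner's ratio. The female hyper count was 0 with normexp, median centring, the scanner's ratio, Cy5 alone or without slides 2 and 8. The female hypo+ count was 0 with normexp, median centring, the scanner's ratio, slide or scan day as a fixed block or Cy5 alone, and 2 with slide as a random block. For hypo+ against hypo females it was 0 with normexp, median centring, Cy5 alone or without slides 2 and 8, and 2 with scan day. Averaged over sexes, the hypo count was 0 with the scanner's ratio, 2 with slide as a random block, 3 with slide or scan day fixed and 4 by Cy5 alone, and the hypo+ count was 1 with median centring, the scanner's ratio or without the pups with acinar transcripts, and 4 with scan day. With 1 pup left out the counts were 0 to 1 in hypo males, hyper males, hyper females and hypo+ females, and 1 to 2 in hypo pups averaged over sexes. By the scanner's ratio the Ces1f difference in hypo females was 0.64 (adjusted p = 1). A lower count with pups left out follows in part from fewer samples, and the causes of the other changes were not tested. The Cy3 signal of Ces1f was well above background on 14 of 34 arrays, which limits its ratio.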
